A study of Mus musculus with 10 samples.

Results

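Histone transcripts were followed in mouse thymi that differed in the alleles of p53 and mdm2. The histone set held 32 of the 23332 features on the array, and it comprised every feature whose annotated symbols were all histone genes. Of these, 18 carried a single symbol and 14 were shared by 2 to 13 histone genes, and together they covered 52 gene symbols. By class there were 8 features of H1, 6 of H2A, 4 of H2B, 8 of H3 and 5 of H4, and 1 feature was shared between H2A and H3 genes. A shared feature was kept as 1 unit and is called here by its first annotated symbol and its feature number.

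The 10 thymus samples fell into 4 groups. Of the mdm2-null thymi, 2 carried mutant p53, p53(246/246)mdm2(-/-), and 2 lacked p53, p53(-/-)mdm2(-/-). Of those with wild-type mdm2, 3 carried mutant p53, p53(246/246)mdm2(+/+), and 3 lacked p53, p53(-/-)mdm2(+/+). All were described as normal thymus of C57BL6/129 hybrid mice aged 4 to 5 weeks. None of the groups carried wild-type p53, so each mdm2 comparison was made on a p53-null or mutant p53 background. The series' text counts 10 thymi, so each sample was taken as a separate thymus, although the sample labels name no animals.

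Nucleosomes are built from a core of H2A, H2B, H3 and H4 around which DNA is wrapped, and the linker histone H1 binds where DNA enters and leaves. Most histone genes lie in clusters of near-identical copies and are transcribed in S phase. Their mRNAs end in a stem-loop instead of a poly(A) tail, and the stem-loop binding protein encoded by Slbp attends their processing and translation. A smaller set of variant genes, such as those of H2A.Z and H3.3, lies outside the clusters and is expressed throughout the cell cycle, and some variants are made in the germ line. The thymus of a young mouse holds many dividing thymocytes and therefore expresses the S phase histone genes. The 32 features comprised 22 of the replication-dependent kind, 5 of replication-independent variants and 5 of germ-line variants.

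Facts of the whole table frame these results. The median log2 signal of a sample was 6.1 to 6.26, and correlations between samples across features ranged from 0.967 to 0.991. Mdm2, the ubiquitin ligase gene deleted in the mdm2-null mice, had a log2 signal of 8.28 to 8.43 in the 4 mdm2-null thymi and 9.47 to 9.62 in the 6 with wild-type mdm2, in the direction of the labels. By the prefix of their names the arrays formed 3 sets, each holding 1 mdm2 genotype, so an effect of mdm2 and one of the set cannot be told apart. Neither can the p53 comparison among mdm2-null thymi, whose groups had different prefixes. Of the 20 listed thymocyte identity genes, 14 were measured, and their mean log2 signal was 10.44 to 10.77 in the mdm2-null samples, against 10.69 to 10.80 in those with wild-type mdm2. Over both p53 genotypes 13 of them were lower and 1 higher in mdm2-null thymi. Their median log2 change was -0.13, against -0.02 over all features, and 0 were called. Of 20 listed liver genes 16 were measured, and their mean was 6.22 to 8.84 in the mdm2-null samples, against 4.39 to 4.88 in those with wild-type mdm2, so that the ranges were apart. With wild-type mdm2, 10 of the 16 were dimmer than the lower quartile of features, against 0 of 16 in mdm2-null thymi. The Y-linked genes Kdm5d and Eif2s3y were at 3.73 and 3.46 in replicate 1 of p53-null, mdm2 wild-type thymi, against 7.27 or more and 9.72 or more in the other 9 samples.

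The upstream sequences of 4 genes are shown because a feature shared by near-identical coding sequences does not tell its genes apart, whereas each gene has its own promoter. H1f10, H2ac4 and H4c4 are the first symbols of the 3 features that changed below, and H4f16 leads a second feature with the same 13 symbols as that of H4c4. The sequences are the 250 bases before the annotated start, read 5′ to 3′ from RefSeq. Capitals mark matches on either strand to TATAAA (the TATA box), CCAAT, the octamer ATTTGCAT and the run GGTCCG.
H1f10, GRCm38.p6 chr6:87981483-87981732, minus strand: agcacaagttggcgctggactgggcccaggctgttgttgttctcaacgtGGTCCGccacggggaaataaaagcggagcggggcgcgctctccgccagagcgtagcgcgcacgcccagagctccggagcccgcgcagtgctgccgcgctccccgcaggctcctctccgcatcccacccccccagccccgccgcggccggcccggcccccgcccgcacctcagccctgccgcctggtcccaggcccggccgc
H2ac4, GRCm38.p6 chr13:23750838-23751087, plus strand: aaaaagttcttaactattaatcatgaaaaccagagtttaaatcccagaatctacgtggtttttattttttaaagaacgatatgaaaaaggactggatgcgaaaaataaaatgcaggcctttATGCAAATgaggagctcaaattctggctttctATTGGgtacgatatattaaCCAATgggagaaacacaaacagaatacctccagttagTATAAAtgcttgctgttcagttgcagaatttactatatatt
H4c4, GRCm38.p6 chr13:23581318-23581567, plus strand: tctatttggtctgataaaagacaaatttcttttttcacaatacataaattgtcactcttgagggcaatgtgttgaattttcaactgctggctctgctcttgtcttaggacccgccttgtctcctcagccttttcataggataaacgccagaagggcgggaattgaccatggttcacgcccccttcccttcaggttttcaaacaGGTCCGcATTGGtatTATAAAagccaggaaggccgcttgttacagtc
H4f16, GRCm38.p6 chr6:136804432-136804681, minus strand: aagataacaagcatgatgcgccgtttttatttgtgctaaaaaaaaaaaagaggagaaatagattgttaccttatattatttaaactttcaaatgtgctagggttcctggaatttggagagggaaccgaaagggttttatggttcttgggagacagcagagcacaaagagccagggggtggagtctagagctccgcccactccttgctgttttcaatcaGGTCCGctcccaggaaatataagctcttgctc
The H2ac4 window held a TATA box with its first base 41 bases before the start, a CCAAT box on each strand and an octamer on the opposite strand. The H4c4 window held a TATA box at 32 bases, a CCAAT box on the opposite strand at 40 bases and GGTCCG at 47 bases before the start, and H4f16 held GGTCCG at 32 bases and none of the other motifs. The H1f10 window held GGTCCG at 201 bases before the start and none of the other motifs.

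Of the 52 gene symbols, 48 had a promoter sequence. None of the motifs contains another. GGTCCG was added after the sequences had been seen. Among the 39 promoters of replication-dependent genes, 46.2% held TATAAA and 71.8% held CCAAT, against 12.4% and 33.8% of all 32851 promoters. The classes differed in what they held. GGTCCG stood in 9 of 12 H4 promoters, against 6.72% of all promoters, in 1 of 10 H3 promoters and in 0 of the 17 promoters of H1, H2A and H2B genes, all counted among replication-dependent genes, which leaves out H1f10. CCAAT stood in 11 of 11 H2A promoters and in 3 of 12 H4 promoters. The octamer stood in 3 of 11 H2A and 1 of 2 H2B promoters, against 1.6% of all promoters. A match describes letters in the window, not a bound site.

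The comparison of mdm2-null with mdm2 wild-type thymi over both p53 genotypes asked which histone transcripts differ without mdm2 when p53 is absent or mutant. H1f10 and the H2A feature led by H2ac4 (6805382) rose, and the H4 feature led by H4c4 (6805366) fell. These 3 were 9.38% of the 32 histone features, and 902 of 23332 features, 3.87%, were called at an adjusted p under 0.05 in the same test (limma, with adjustment by Benjamini and Hochberg). The 2 higher histone features compare with 1.96% of all features called higher, and the 1 lower with 1.9% called lower. The mdm2 genotypes did not overlap in 5 of 32 histone features, 15.6%, against 8.45% of all features. At an unadjusted p under 0.05 there were 6 of 32 histone features, 18.8%, against 21% of all features. The median log2 change over the 32 features was 0.0038, with 17 higher and 15 lower, and the median over all features was -0.02. The median size of the change was 0.181 in the histone features and 0.145 in all features. All 3 calls were lost without mutant p53, mdm2-null replicate 2, 2 of them without mutant p53, mdm2 wild-type replicate 3, and 1 without mutant p53, mdm2 wild-type replicate 1. The plain linear model called only the H2A feature.

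**Figure D1:**
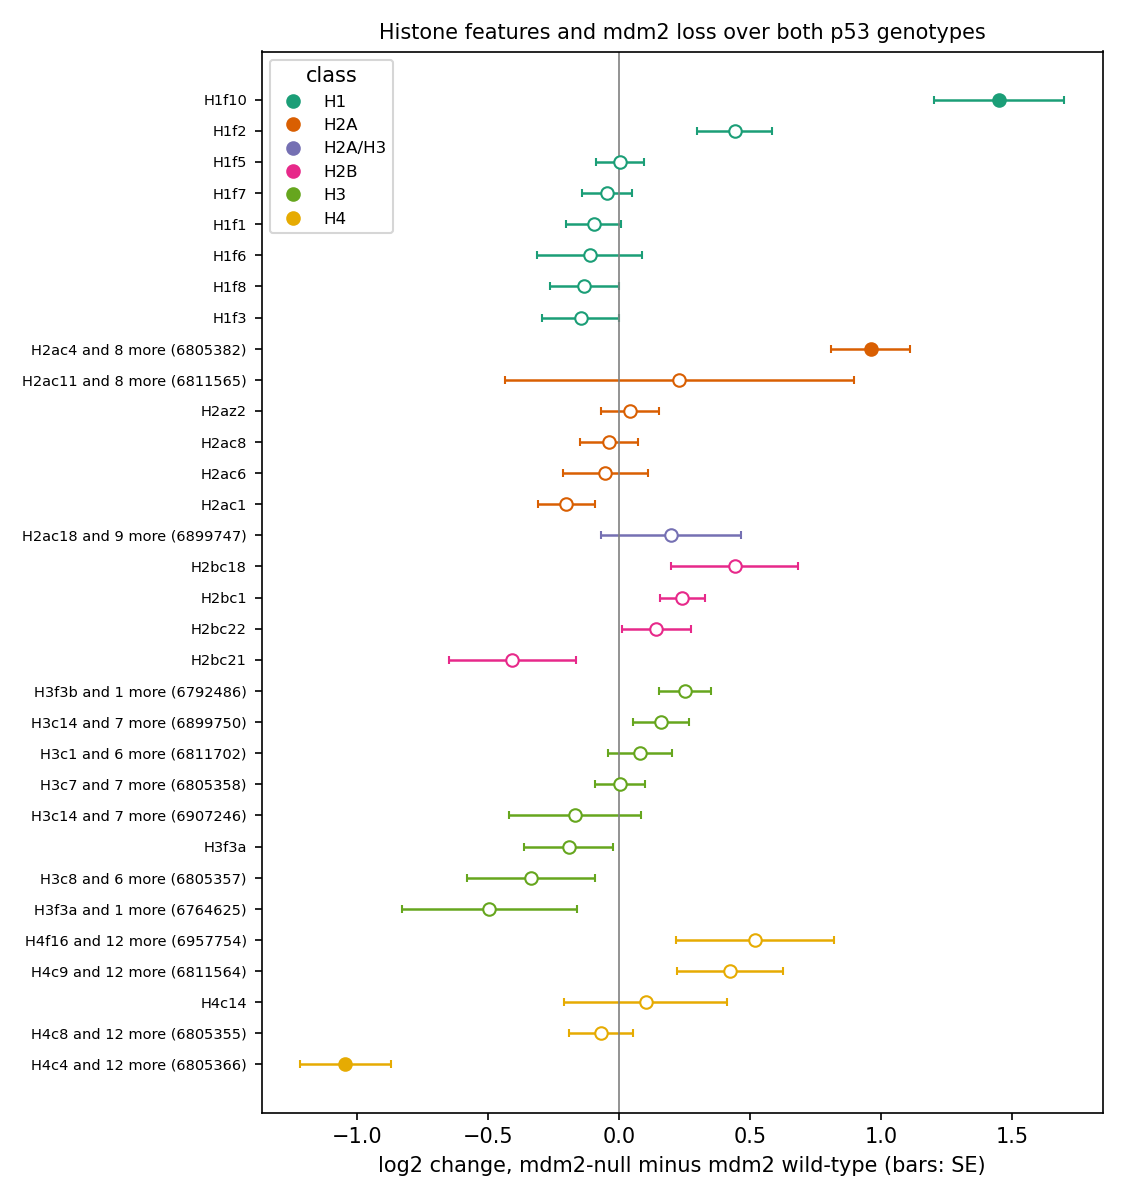
Log2 change of each of the 32 histone features in mdm2-null against mdm2 wild-type thymi over both p53 genotypes (x axis; points are estimates, bars are SE), grouped and coloured by class. Filled points mark the 3 features with an adjusted p under 0.05, which are H1f10 at 1.45, the H2ac4 feature at 0.96 and the H4c4 feature at -1.04; the other features lie between -0.50 and 0.52.

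H1f10 encodes a linker histone variant, also known as H1x, whose gene lies outside the clusters and whose expression does not depend on replication. Its log2 signal was 7.36 and 8.36 in mutant p53, mdm2-null thymi and 7.77 and 8.35 in p53-null, mdm2-null thymi. It was 6.89, 6.59 and 6.85 in mutant p53, mdm2 wild-type thymi and 5.88, 6.19 and 6.68 in p53-null, mdm2 wild-type thymi. Each mdm2-null sample thus lay above each mdm2 wild-type sample. The rise was 1.45 on the log2 scale (SE 0.25), or 2.73-fold, with an adjusted p of 0.0232 in limma. The lowest value belonged to the sample with low Y-linked signal, and without that sample the rise was 1.33 (adjusted p = 0.039). The call was lost without mutant p53, mdm2-null replicate 2 (adjusted p = 0.0747) and without mutant p53, mdm2 wild-type replicate 3 (adjusted p = 0.0527).

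Among replication-dependent genes, the H2A feature led by H2ac4 rose. It is shared by 9 genes of the core histone H2A. Its log2 signal was 8.98 and 9.22 in mutant p53, mdm2-null thymi and 8.97 and 9.38 in p53-null, mdm2-null thymi. It was 8.37, 8.50 and 8.40 in mutant p53, mdm2 wild-type thymi and 7.87, 7.71 and 8.23 in p53-null, mdm2 wild-type thymi. The mdm2 genotypes did not overlap. With wild-type mdm2, the mutant p53 samples all lay above the p53-null ones, and those groups did not overlap in 7.67% of all features. The rise without mdm2 was 0.96 (SE 0.15), or 1.95-fold, with an adjusted p of 0.0181 in limma. Without mutant p53, mdm2-null replicate 2 the adjusted p was 0.0569.

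The H4 feature led by H4c4 fell. It is shared by 13 genes of the core histone H4. Its log2 signal was 11.21 and 10.44 in mutant p53, mdm2-null thymi and 10.50 and 11.06 in p53-null, mdm2-null thymi. It was 11.90, 11.57 and 11.85 in mutant p53, mdm2 wild-type thymi and 11.85, 11.76 and 12.16 in p53-null, mdm2 wild-type thymi. Every mdm2-null sample was below every mdm2 wild-type sample. The log2 change was -1.04 (SE 0.17), or 2.06-fold, with an adjusted p of 0.0222 in limma. Its call was lost without mutant p53, mdm2-null replicate 2 (adjusted p = 0.0674) and without replicate 1 (0.0581) or 3 (0.0565) of mutant p53, mdm2 wild-type thymi. In bulk tissue, fewer cells of a type and less RNA per cell cannot be told apart.

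**Figure D2:**
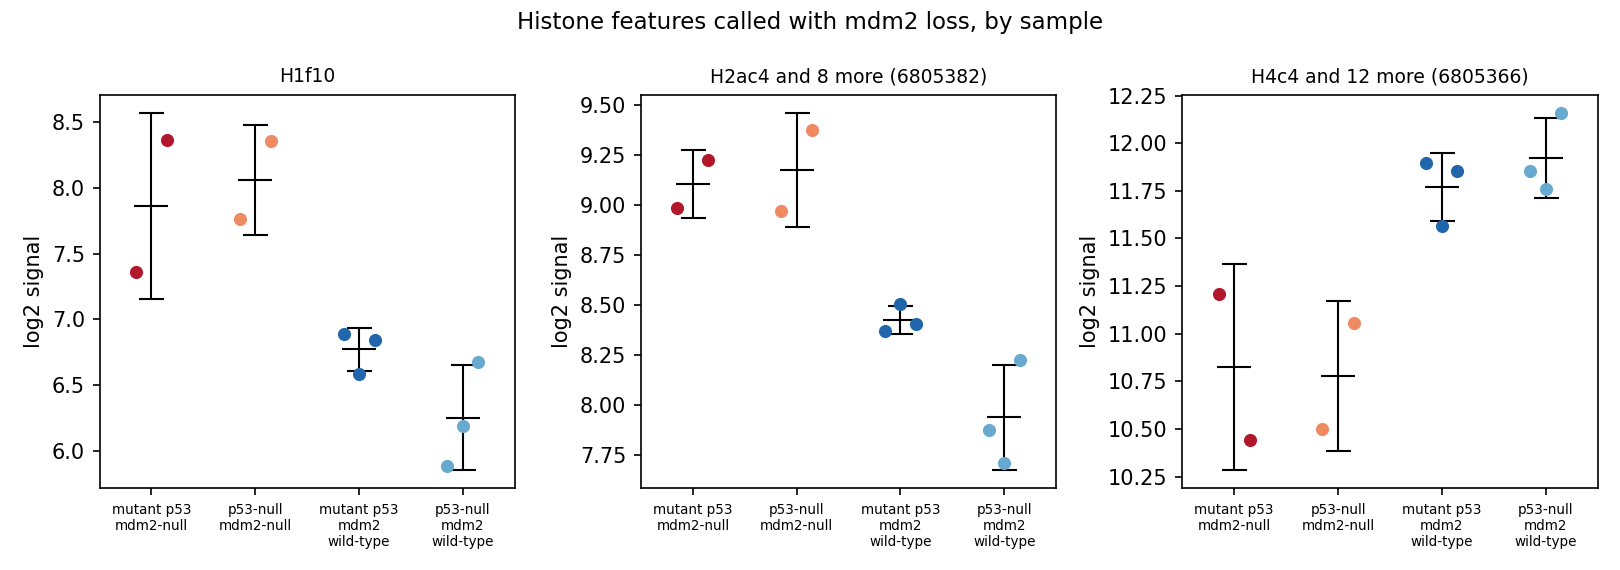
Log2 signal (y axis) of H1f10, the H2ac4 feature and the H4c4 feature in the 4 groups (x axis). Points are samples, and black bars are the mean and SD of a group (n = 2 for mdm2-null, n = 3 for mdm2 wild-type groups). H1f10 is at 7.36 or more in mdm2-null and at 6.89 or less in mdm2 wild-type thymi, and the H4c4 feature is at 11.21 or less in mdm2-null and at 11.57 or more in mdm2 wild-type thymi.

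Liver genes differed between the mdm2 genotypes in the same samples. Of the 16 measured, 14 were called higher in mdm2-null thymi over both p53 genotypes (limma), beside 1.96% of all features. All 16 were higher, with a median log2 change of 3.05, against -0.02 over all features. The mean of the list was 7.19 and 8.49 in mutant p53, mdm2-null replicates 1 and 2 and 6.22 and 8.84 in p53-null, mdm2-null replicates 1 and 2. In both mdm2-null groups the sample with the higher liver mean also had the higher H1f10 and H2ac4 values. The H4c4 feature was lower in that sample in mutant p53, mdm2-null thymi (10.44, against 11.21 in the other) and higher in p53-null, mdm2-null thymi (11.06, against 10.50 in the other). Each mdm2-null group held only 2 samples. In each mdm2 wild-type group the sample with the highest liver mean had the lowest H1f10 value. This was 6.59 at a liver mean of 4.63 in mutant p53 and 5.88 at 4.88 in p53-null thymi. The H2ac4 value of that sample was the highest of its group in mutant p53 thymi (8.50) and between the others in p53-null thymi (7.87). The part of liver signal in the histone results was not tested. Of the other lists, the 14 measured adipocyte genes of 15 had means of 5.56 to 7.02 in the mdm2-null samples, against 5.10 to 6.18 in those with wild-type mdm2, and 4 of them were called higher, beside 1.96% of all features. All 14 were higher in mdm2-null thymi over both p53 genotypes, with a median log2 change of 0.90. Of 15 listed erythroid genes 8 were measured. Means of this list were 4.86 to 5.91 in the mdm2-null samples, against 4.69 to 4.92 in those with wild-type mdm2. The mean of 5.91 was that of p53-null, mdm2-null replicate 1. In mdm2-null thymi 6 erythroid genes were higher and 2 lower, with a median of 0.40, and 1 was called lower, beside 1.9% of all features. Of 14 listed genes of macrophages and dendritic cells 12 were measured. Means of that list were 7.39 to 7.76 in the mdm2-null samples, against 7.41 to 8.01 in those with wild-type mdm2. There 8 genes were higher and 4 lower, and 1 was called lower. In the B cell, thymic epithelium, skeletal muscle and thymocyte lists 0 were called.

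Over all 10 samples, the features whose signal followed the H2ac4 feature most closely were H1f10 (Pearson r = 0.955), the H4 feature led by H4c9 (r = 0.736) and H2bc18 (r = 0.66). The H4c4 feature had the most negative value, r = -0.795. These correlations describe the same 10 samples, in which the mdm2 groups already differ, and they carry no test.

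Within H1, the other 7 features did not pass. H1f2, a replication-dependent linker histone of the cluster, had a log2 signal of 10.06 and 10.06 in mutant p53, mdm2-null thymi and 10.22 and 10.14 in p53-null, mdm2-null thymi. It was 9.63, 9.94 and 9.25 in mutant p53, mdm2 wild-type thymi and 9.68, 10.03 and 9.53 in p53-null, mdm2 wild-type thymi. The mdm2 genotypes did not overlap, but the difference of 0.44 (SE 0.14) had an adjusted p of 0.11 (limma). The cluster linker histone genes H1f5, H1f1 and H1f3 differed by 0.0042, -0.10 and -0.15, each within 1 SE of 0. H1f5 was at 11.67 to 11.75 in the mdm2-null samples, against 11.49 to 11.94 in those with wild-type mdm2. The germ-line linker histones H1f6 and H1f7 of the testis and H1f8 of the oocyte differed by -0.11, -0.05 and -0.13, with adjusted p of 0.645 or more. Their signals were low, and H1f7 lay between 3.77 and 4.14 in all samples.

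Within H2A, 2 features carry the same 9 symbols, and only that of H2ac4 passed the test. The one led by H2ac11 (6811565) was at 4.70 and 6.44 in mutant p53, mdm2-null thymi, 2.98 and 5.98 in p53-null, mdm2-null thymi, 5.02, 5.34 and 4.63 in mutant p53, mdm2 wild-type thymi and 3.12, 4.82 and 5.84 in p53-null, mdm2 wild-type thymi. It ranged over 3.46 log2 units, the widest range among the 32 features. Its mdm2 difference of 0.23 (SE 0.67, adjusted p = 0.899, limma) was smaller than its spread, and its r with the H2ac4 feature was 0.348 over the 10 samples. H2az2, a gene of the replication-independent variant H2A.Z, was at 11.18 to 11.60 in the mdm2-null samples, against 11.13 to 11.51 in those with wild-type mdm2, a difference of 0.04 (SE 0.11). The single-symbol features of the cluster genes H2ac8 and H2ac6 lay between 2.62 and 3.06 and between 3.09 and 4.00, among the dimmest of the table. They differed by -0.04 and -0.05, and both symbols are also among the 9 of the H2ac4 feature. H2ac1, a germ-line H2A of the testis, differed by -0.20 (SE 0.11, adjusted p = 0.342). The feature led by H2ac18 (6899747), shared by H2A and H3 genes, differed by 0.20 (SE 0.27).

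None of the 4 H2B features passed. H2bc1, the testis H2B, was at 4.44 and 4.55 in mutant p53, mdm2-null thymi, 4.30 and 4.45 in p53-null, mdm2-null thymi, 4.24, 4.02 and 4.14 in mutant p53, mdm2 wild-type thymi and 4.27, 4.27 and 4.22 in p53-null, mdm2 wild-type thymi. The genotypes did not overlap, by a small margin near the lower quartile of feature means (4.37), and the difference of 0.24 (SE 0.09) had an adjusted p of 0.144 (limma). H2bc18 and H2bc21, cluster genes of H2B, differed in opposite directions. H2bc18 was 0.44 higher (SE 0.24, adjusted p = 0.343) and H2bc21 was 0.41 lower (-0.41, SE 0.24, adjusted p = 0.386) in mdm2-null thymi. Both spread widely in p53-null, mdm2-null thymi. There replicates 1 and 2 were 6.19 and 7.38 for H2bc18 and 7.06 and 5.56 for H2bc21. H2bc18 differed by 0.22 in mutant p53 and by 0.66 in p53-null thymi (SE 0.34 each). H2bc21 differed by -0.42 in mutant p53 and by -0.39 in p53-null thymi (SE 0.36 each). In mutant p53 thymi the mdm2 genotypes did not overlap for H2bc21, as for 36.1% of all features. Over both p53 genotypes H2bc22 differed by 0.14 (SE 0.13).

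None of the 8 H3 features passed, and 4 lay higher and 4 lower in mdm2-null thymi, between -0.50 and 0.25. The feature shared by H3f3b and H3f3a (6792486), the genes of the replacement histone H3.3, was at 12.86 and 12.64 in mutant p53, mdm2-null thymi and 12.60 and 12.63 in p53-null, mdm2-null thymi. It was 12.33, 12.54 and 12.30 in mutant p53, mdm2 wild-type thymi and 12.51, 12.60 and 12.32 in p53-null, mdm2 wild-type thymi. The lowest mdm2-null value and the highest mdm2 wild-type value both rounded to 12.60, and the difference of 0.25 (SE 0.10) had an adjusted p of 0.176 (limma). The other feature of the same 2 genes (6764625) was lower by -0.50 (SE 0.34), and the single-symbol H3f3a feature by -0.19 (SE 0.17). Among the cluster H3 features, that led by H3c8 (6805357) differed by -0.34 (SE 0.25). The features led by H3c14 differed by 0.16 (6899750, SE 0.11) and -0.17 (6907246, SE 0.25), although their 8 symbols are the same. Those led by H3c1 and H3c7 differed by 0.08 and 0.0034. Of the H3 features, 4 had a mean under the lower quartile of all features.

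The H4 class held 4 features with the same 13 symbols, of which only the H4c4 feature passed the test; differences between features were not tested. The feature led by H4c9 (6811564) was at 7.86 and 8.08 in mutant p53, mdm2-null thymi, 7.53 and 8.32 in p53-null, mdm2-null thymi, 7.39, 8.17 and 7.46 in mutant p53, mdm2 wild-type thymi and 7.08, 7.52 and 7.53 in p53-null, mdm2 wild-type thymi. Groups overlapped, and the difference of 0.42 (SE 0.20) had an adjusted p of 0.269 (limma). The feature led by H4f16 (6957754) differed by 0.52 (SE 0.30, adjusted p = 0.372) and that led by H4c8 (6805355) by -0.07 (SE 0.12, adjusted p = 0.823). Correlations over the 10 samples between the H4c4 feature and the other members of its symbol set were 0.0852 for H4c8, -0.521 for H4c9 and -0.262 for H4f16. H4c14, the only H4 feature with a single symbol, was at 8.23 to 8.65 in mdm2-null thymi and 7.20 to 9.39 in mdm2 wild-type thymi, and differed by 0.10 (SE 0.31). Its symbol is also among the 13 of the H4c4 feature. The annotation does not say which of the 13 genes gave the signal of each feature.

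**Figure D3:**
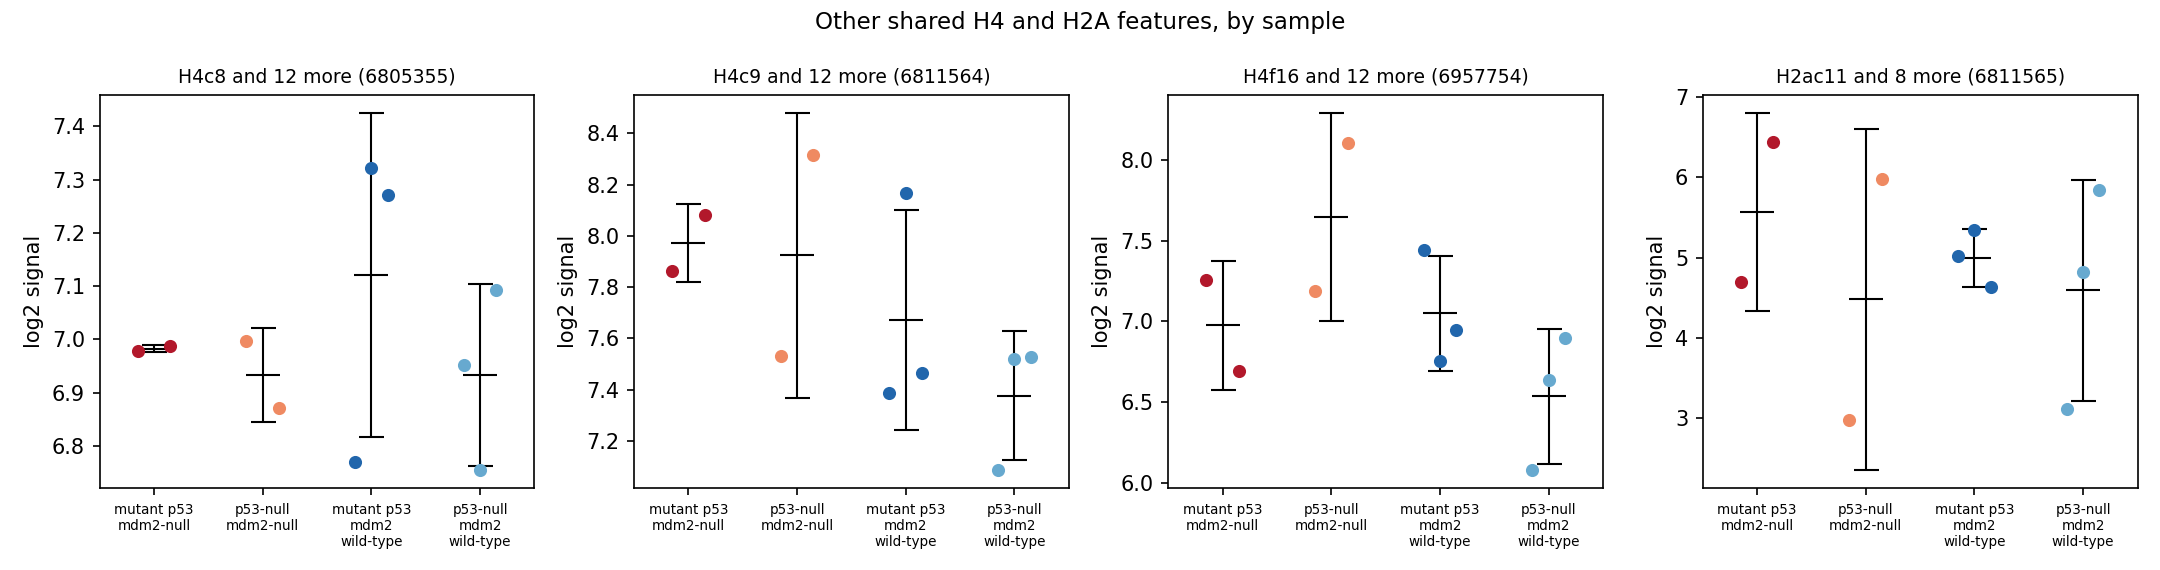
Log2 signal (y axis) of the 3 other H4 features with the symbol set of the H4c4 feature, and of the H2A feature with the symbol set of the H2ac4 feature, in the 4 groups (x axis). Points are samples and black bars are the mean and SD (n = 2 for mdm2-null, n = 3 for mdm2 wild-type groups); the mdm2 genotypes overlap in each panel, and the H2ac11 feature runs over 3.46 log2 units.

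Within each p53 genotype the mdm2 comparison called 0 histone features. In mutant p53 thymi 3 of 23332 features, 0.0129%, were called, and 5 histone features had an unadjusted p under 0.05, 15.6% of 32 against 16.4% of all features (limma). In p53-null thymi 5 features, 0.0214%, were called over the whole table, and 4 histone features had an unadjusted p under 0.05, 12.5% against 10.7%. H1f10 averaged 7.86 ± 0.71 (SD, n = 2) in mutant p53, mdm2-null samples, against 6.77 ± 0.16 (SD, n = 3) in mutant p53, mdm2 wild-type thymi, a difference of 1.09 (SE 0.33, adjusted p = 0.166). It averaged 8.06 ± 0.42 (SD, n = 2) in p53-null, mdm2-null thymi and 6.25 ± 0.40 (SD, n = 3) in p53-null, mdm2 wild-type thymi, a difference of 1.81 (SE 0.33, adjusted p = 0.169).

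The H2ac4 feature differed by 0.68 (SE 0.18, adjusted p = 0.139, limma) in mutant p53 and by 1.24 (SE 0.18, adjusted p = 0.111) in p53-null thymi. The H4c4 feature differed by -0.95 (SE 0.26, adjusted p = 0.14) in mutant p53 and by -1.14 (SE 0.26, adjusted p = 0.228) in p53-null thymi. The H4f16 feature differed by -0.075 in mutant p53 thymi and by 1.11 (SE 0.35, adjusted p = 0.32) in p53-null thymi.

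Whether the mdm2 effect differed between p53 genotypes was tested directly, as the effect in mutant p53 minus that in p53-null thymi. In all 0 of 23332 features, 0%, were called, and 2 of 32 histone features, 6.25%, had an unadjusted p under 0.05, against 4.27% of all features (limma). These were H4f16 at -1.19 (SE 0.49, adjusted p = 0.995) and H2ac8 at -0.44 (SE 0.18, adjusted p = 0.995). For H1f10 the difference of effects was -0.72 (SE 0.46, adjusted p = 0.995), for the H2ac4 feature -0.56 (SE 0.26) and for the H4c4 feature 0.20 (SE 0.36).

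The comparison of mutant p53 with p53-null thymi asked whether the mutant allele acts beyond the loss of p53. Over both mdm2 genotypes 0 features of the table, 0%, were called, and 0 of 32 histone features had an unadjusted p under 0.05, against 2.54% of all features (limma). The median log2 change was 0.05 in the histone features and -0.0027 in all. The smallest unadjusted p belonged to H4c14, with a difference of -0.58 (SE 0.31). Its values with wild-type mdm2 were 8.45, 7.20 and 8.19 in mutant p53 thymi and 8.87, 7.87 and 9.39 in p53-null thymi, which overlapped. With mdm2 null they were 8.32 and 8.23 in mutant p53 thymi and 8.51 and 8.65 in p53-null thymi. Those did not overlap, as for 27.7% of all features. The H2ac4 feature differed by 0.27 (SE 0.15), the H4c9 feature by 0.20 (SE 0.20) and H1f1 by 0.15 (SE 0.10), all with an adjusted p of 1.

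With wild-type mdm2, 0 features were called, 0%, and 2 histone features had an unadjusted p under 0.05, 6.25% of 32 against 2.96% of all features (limma). The H2ac4 feature was higher by 0.49 (SE 0.16, adjusted p = 1) in mutant p53 thymi, and H2ac8 by 0.27 (SE 0.11, adjusted p = 1). H1f10 differed by 0.52 (SE 0.29) and H2ac6 by 0.38 (SE 0.19). With mdm2 null, 0 features were called, 0%, and 0 of 32 histone features had an unadjusted p under 0.05, against 3.87% of all features. There the H2ac4, H4c4 and H1f10 features differed by -0.07, 0.04 and -0.20 between mutant p53 and p53-null thymi, each less than its SE. These p53 comparisons share samples with the mdm2 comparisons.

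**Figure D4:**
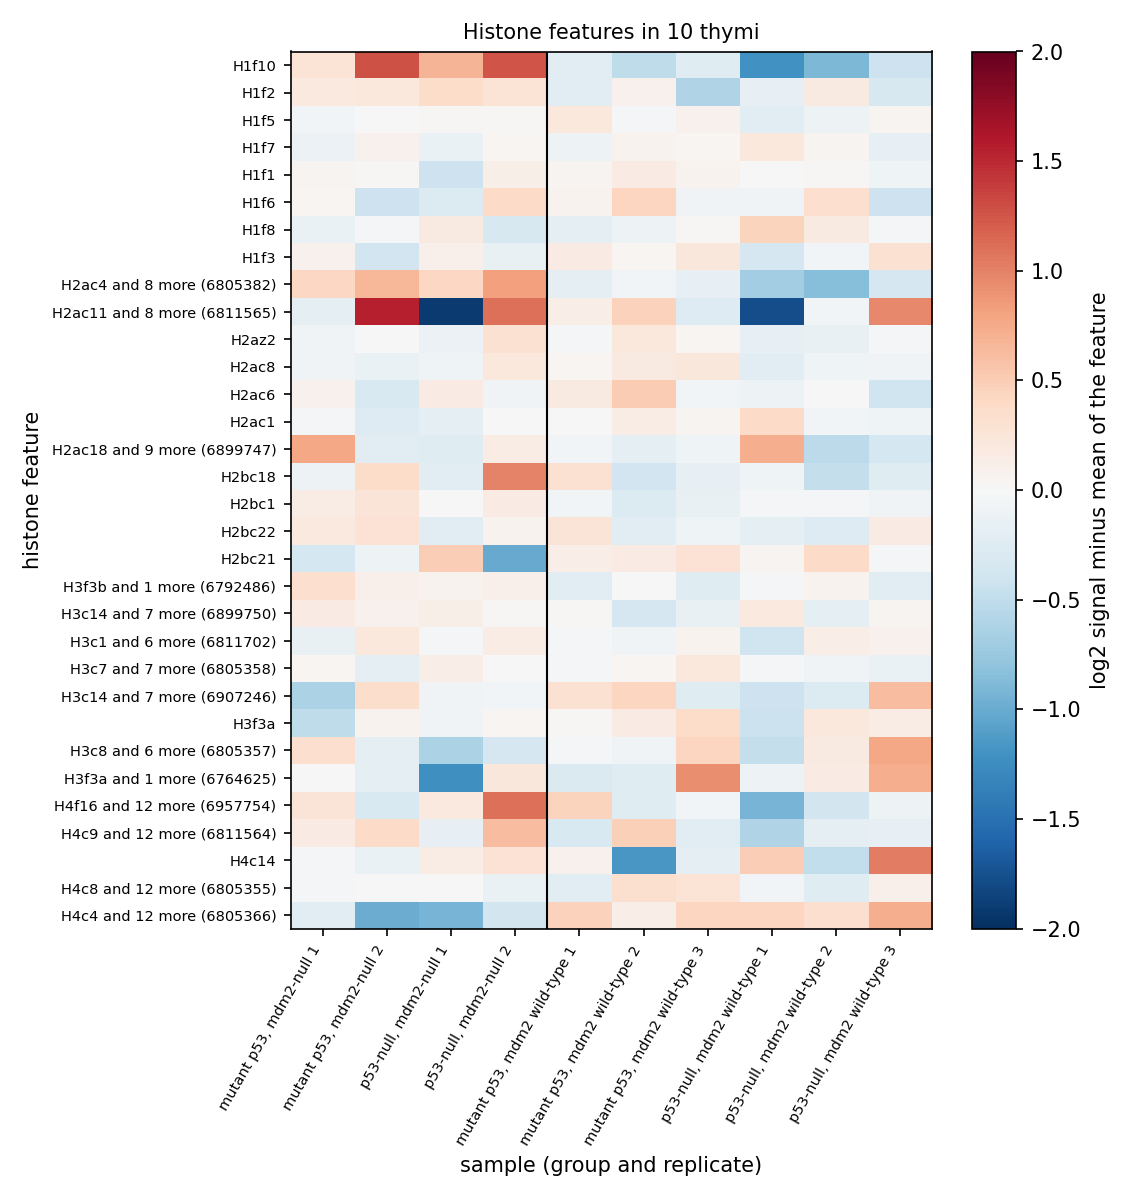
Log2 signal of the 32 histone features (rows, by class in the order H1, H2A, H2A/H3, H2B, H3, H4) in the 10 samples (columns), as the difference from the mean of the feature over all samples (colour). The line separates 4 mdm2-null samples at the left from 6 mdm2 wild-type samples at the right; H1f10 and the H2ac4 feature are above their means in the 4 samples at the left, and the H4c4 feature is below.

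Genes that act with the histones were read from lists. Of 25 listed genes of histone mRNA synthesis and 3′ end processing, 19 were measured. Over both p53 genotypes 1 was called higher and 0 lower in mdm2-null thymi, beside 1.96% and 1.9% of all features. The called gene was Srrt, which encodes a partner of the nuclear cap-binding complex, with a rise of 0.42 (SE 0.08, adjusted p = 0.0308, limma). Coil, which encodes the scaffold protein of Cajal bodies, differed by 0.34 (adjusted p = 0.0915). Slbp was at 9.29 and 8.36 in mutant p53, mdm2-null thymi, 7.81 and 9.27 in p53-null, mdm2-null thymi, 7.42, 8.41 and 7.69 in mutant p53, mdm2 wild-type thymi and 8.44, 7.76 and 7.0 in p53-null, mdm2 wild-type thymi. The genotypes overlapped, and its difference of 0.90 (SE 0.37) had an adjusted p of 0.197.

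Of 27 listed histone chaperones and importers 24 were measured and 0 were called (limma). The smallest p-values were those of Atrx, a gene of H3.3 deposition, at -0.39 (adjusted p = 0.0601) and Nap1l1, a chaperone gene of H2A and H2B, at 0.39 (adjusted p = 0.0651). Of 42 listed genes of S phase and DNA replication 38 were measured. In mdm2-null thymi 0 were called higher and 1 lower, beside 1.96% and 1.9% of all features. The called gene was Ccne2, a cyclin of the entry into S phase, which fell by 0.61 (SE 0.14, adjusted p = 0.0487). Pola1, a DNA polymerase alpha subunit gene, differed by -0.28 (adjusted p = 0.0984). In this list 29 genes were lower and 9 higher, with a median of -0.11, against -0.02 over all features. Of 25 listed genes of G2 and M phase 23 were measured and 4 were called lower, beside 1.9% of all features. Among the 4 were Hmmr, which fell by 0.55 (adjusted p = 0.0253, limma), and Kif20a, which fell by 0.42 (adjusted p = 0.0409). In the G2 and M phase list 20 genes were lower and 3 higher, with a median of -0.13. Its mean was 8.96 to 9.20 in the mdm2-null samples, against 9.04 to 9.41 in those with wild-type mdm2, which overlapped. The S phase list mean was 8.65 to 8.82 in the mdm2-null samples, against 8.63 to 8.96 in those with wild-type mdm2, so the genotypes overlapped. In the other 6 comparisons 0 genes of these 4 lists were called.

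**Figure D5:**
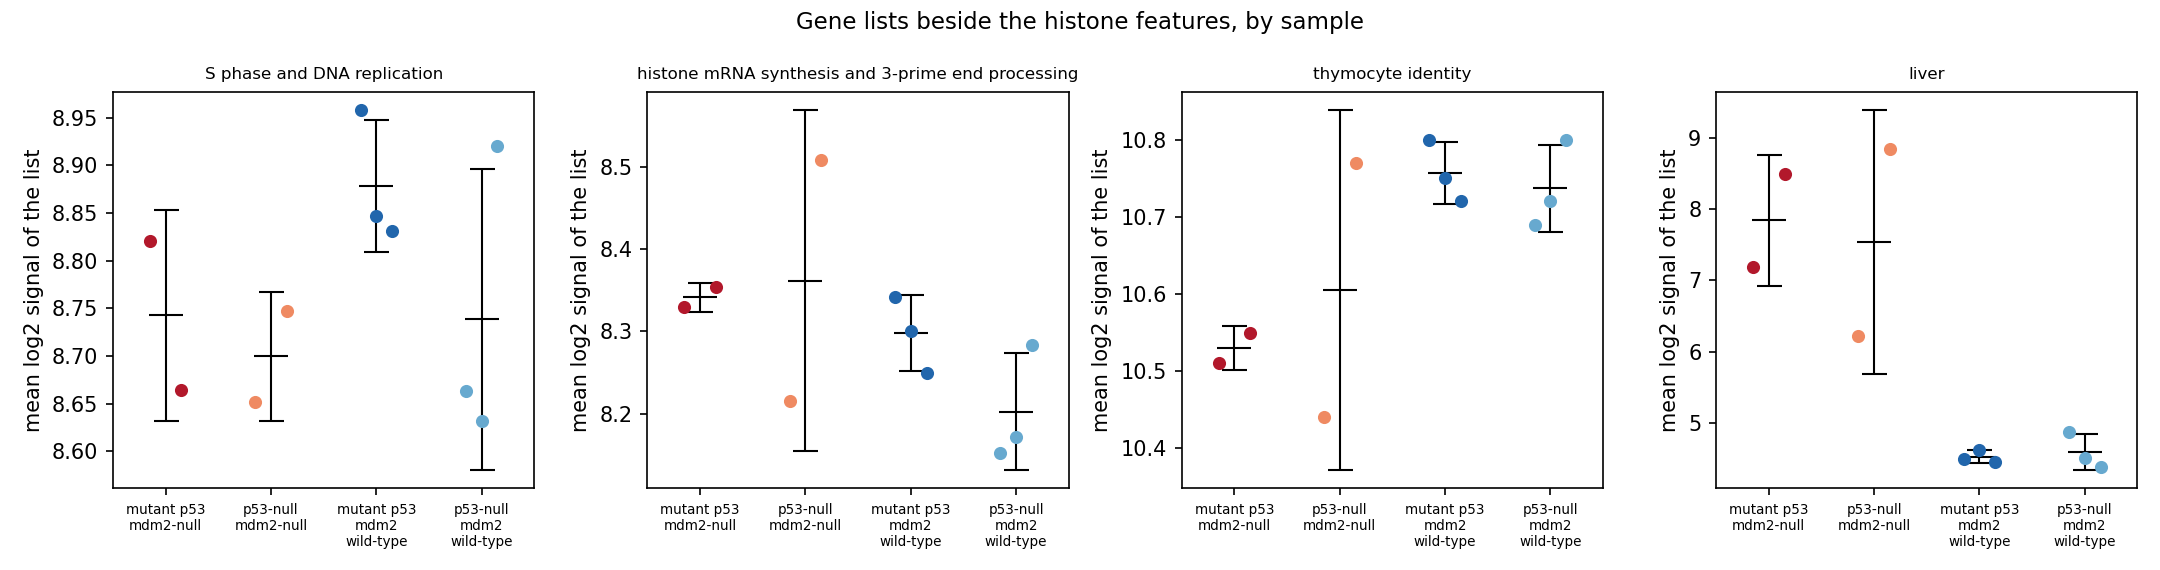
Mean log2 signal (y axis) of 4 gene lists in the 4 groups (x axis): S phase and DNA replication, histone mRNA synthesis and 3′ end processing, thymocyte identity, and liver. Points are samples, and black bars are the mean and SD (n = 2 for mdm2-null, n = 3 for mdm2 wild-type groups); the liver list is at 6.22 or more in mdm2-null and at 4.88 or less in mdm2 wild-type thymi, and the genotypes overlap in the other 3 lists.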

How the data were processed

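RNA of 10 thymi was measured on arrays. Trizol and RNeasy were used for the RNA, per the labels' protocols; ribosomal RNA was reduced, and whole-transcript cDNA was fragmented and labelled with biotin. The deposited values are processed log2 signals. Partek 6.5 and build mm8 are named, per the submitters' processing notes; normalization, background correction and the summary of probes are not given in the sources used here. The series' text names a mixed-model analysis of variance without its factors. No per-sample column was left out (0).

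Histone features were those whose every symbol in the platform annotation began with H1f, H2ac, H2bc, H3c, H3f, H4c, H4f, H2az, H2af or Hist and a cluster number. Members, gene lists and tests were chosen with earlier results of these data known. All 23332 features were fitted with limma 3.58.1 in R 4.3.3 (two-sided, Benjamini-Hochberg over all features, threshold 0.05). A model with 1 mean per group served 5 comparisons, and an additive model of both genotypes served the 2 over both backgrounds. The fits were checked first on simulated data. With 10 arrays the precision is limited: the median SE of the mdm2 effect was 0.15 over the histone features. No detection calls were given, so changes of features near the low end of the signal may be understated. Levels of different features were ranked only to mark dim and bright ones, and no test compares them.

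By rule, the text names called histone features; in each class the 3 of smallest p for mdm2 and the 2 for mutant p53, over both backgrounds; the brightest and dimmest of each class; single-symbol replication-independent variants; Mdm2, Slbp and Npat; and the 2 genes of smallest p per list. H1f3, H1f6 and the features led by H2ac11, H3c7 and H3c14 (6907246) lie outside the rule and were added after their values were seen. In the 8 marker lists of cell types no gene is named. Npat had no single-symbol feature and was not analysed here. Histone features were chosen and named by the symbols of the platform annotation. Current symbols and synonyms from the gene table of assembly GRCm38.p6 served alternative sets and the matching of list genes. Promoter sequences were of the same assembly. Alternatives were median centring, quantile normalization, filters on dim features, other variance models, the replicate number as a block, fits to 2 groups and leaving out each sample.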

Additional observations from a re-analysis of the deposited data

How the results depend on the processing

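The number of histone features called with mdm2 loss over both p53 genotypes was 3. It was also 3, with the same features, under median centring, quantile normalization, an intensity trend with robust prior, without the dimmest 25% or 50% of features and with current symbols. It was 1 in the plain linear model, which lacks moderation, and 0 to 3 when 1 sample was left out. Over all features the 902 calls became 453 in the plain linear model and 114 to 776 when 1 sample was left out. Replicate numbers were not taken to pair the samples. The deviations of same-numbered samples correlated over 0.1 in 1 of 13 pairs. They ran from -0.189 to 0.191, and those of the 24 other pairs from -0.206 to 0.23. In a group of 2 the deviations mirror each other, so this check is weak and cannot exclude pairing. With the replicate block 0 histone features and 61 features in all were called. With that block the adjusted p was 0.0568 for H1f10, 0.0603 for the H2ac4 feature and 0.0868 for the H4c4 feature. Over all alternatives the log2 change ran from 1.25 to 1.73 for H1f10, from 0.818 to 1.07 for the H2ac4 feature and from -1.21 to -0.915 for the H4c4 feature. In the other 6 comparisons 0 histone features were called under every alternative run. Signs reversed only for features that were not called. H1f5 was at -0.0081 under quantile normalization and the H4c8 feature at 0.0090 with the replicate block. When 1 sample was left out, H1f5 ran from -0.0363 to 0.0432, H1f1 from -0.192 to 0.0127, H2ac8 from -0.144 to 0.0231, H2ac6 from -0.16 to 0.0832 and H2az2 from -0.0771 to 0.0907. The features led by H2ac18 ran from -0.0387 to 0.391 and H3c1 from -9.05e-05 to 0.159, and H4c14 ran from -0.0897 to 0.277. The cause of these changes was not tested.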

Other observations

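Histone features outside the naming pattern were set beside the 32. There were 12, of which 4 carried 1 symbol that the pattern leaves out and 8 matched only by an older name, a choice made after seeing the data. Under current names and synonyms the set came to 43 features, since the feature shared by Zfyve1 and H2az1 stays outside, and the same 3 were called with mdm2 loss over both p53 genotypes. An H2B feature led by H2bc3 (6805380), shared by 6 genes, was at 8.52 and 7.91 in mutant p53, mdm2-null thymi and 7.54 and 8.82 in p53-null, mdm2-null thymi. It was 9.13, 9.08 and 9.47 in mutant p53, mdm2 wild-type thymi and 9.0, 8.82 and 9.39 in p53-null, mdm2 wild-type thymi, and the difference of -0.95 (SE 0.24) had an adjusted p of 0.0585 (limma). A larger H2B feature led by H2bc4 (6805370), whose 11 symbols include those 6, differed by 0.06 (SE 0.21, adjusted p = 0.92). The feature led by H2bc6 (6811686) is shared by H2B genes and the linker histone gene H1f4. It was at 6.18 to 6.33 in the mdm2-null samples, against 6.36 to 6.54 in those with wild-type mdm2. These did not overlap, as for 8.45% of all features, and the difference was -0.16 (SE 0.07, adjusted p = 0.245, limma). H2bu2, which encodes another H2B, was at 7.46 to 8.37 in the mdm2-null samples, against 5.64 to 7.70 in those with wild-type mdm2, with a difference of 1.18 (SE 0.34, adjusted p = 0.0819).

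The variant H2ax, whose protein is phosphorylated at DNA breaks, was at 10.94 and 10.40 in mutant p53, mdm2-null thymi and 10.51 and 10.87 in p53-null, mdm2-null thymi. It was 10.50, 10.50 and 10.41 in mutant p53, mdm2 wild-type thymi and 10.20, 10.16 and 10.56 in p53-null, mdm2 wild-type thymi. The genotypes overlapped, and the difference of 0.29 (SE 0.13) had an adjusted p of 0.25 (limma). Macroh2a1, the gene of an H2A variant with a large additional domain, differed by 0.0048 (SE 0.08), and the feature shared by Zfyve1 and the H2A.Z gene H2az1 by 0.08 (SE 0.12). H2aj, another H2A variant gene, differed by 0.42 (SE 0.19, adjusted p = 0.258).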
